A study of Mus musculus with 6 samples.

Results

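The array measured 16194 probes for long intergenic non-coding RNAs (lincRNAs), which carry a genome interval and a strand in place of a gene name. They were every non-control probe whose name starts with a chromosome and its coordinates, and made up 29.1% of the 55681 gene probes on the design. The other 39487 gene probes, which carry gene or transcript names, were used for comparison. The probes are 60 bases long and cover 3543 intervals on the mm9 mouse genome, 1067 of them probed on both strands, which gives 4610 combinations of interval and strand (called regions here). A region has between 1 and 10 probes (median 3), and 690 regions have a single probe. Interval lengths range from 62 to 7.13e+06 bases and have a median of 7304 bases. Of the regions, 2104 (45.6%) overlap another region on the same strand, so neighbouring entries can report 1 transcript. A further 57 probes described as lincRNAs but carrying gene names were kept among the other probes.

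The study used C57BL/6 mice with an intact gene for TIARP (TIARP+/+, WT), also called Steap4, a TNF-induced metalloreductase, and TIARP-deficient mice (TIARP-/-, KO). Peritoneal macrophages were collected 3 days after thioglycollate injection, which draws leukocytes into the cavity, and were measured without TNF and after 24 hours with TNFα. No time in culture is recorded here for the macrophages without TNF, so effects of TNF and of time in culture cannot be told apart. The neutrophils were spleen cells positive for Ly6G, taken by magnetic sorting, with no added cytokine named. These 6 groups (WT and KO macrophages, WT and KO macrophages with TNF, WT and KO neutrophils) had 1 array each. The design text gives 3 mice per genotype for the macrophages and the labels number the mice of each array 1 to 3, without saying whether their RNA was pooled, and ages and the means of gene disruption are not given in the sources used here.

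LincRNAs are transcribed from stretches between protein-coding genes, are often spliced and polyadenylated like messenger RNAs, and are not translated into known proteins. Many are restricted to few cell types and present at low levels. In myeloid cells, which include macrophages and neutrophils, some are induced by inflammatory signals and a few are known to act on neighbouring genes, such as Morrbid, which lies beside the cell death gene Bcl2l11 and prolongs the life of short-lived myeloid cells.

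The probes below come from regions described in the results. They are written 5′ to 3′ as deposited, and the only capitals mark the polyadenylation hexamer AATAAA. The first 3 read 1 region that was brighter on the TNF arrays, mm9 chr17:84397891-84412748 on the forward strand. They lie at separate positions near its 3′ end (probe starts 84412514, 84412629 and 84412689).
chr17 TNF region, probe 1: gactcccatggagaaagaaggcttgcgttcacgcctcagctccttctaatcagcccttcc
chr17 TNF region, probe 2: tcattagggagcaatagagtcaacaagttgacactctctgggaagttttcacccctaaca
chr17 TNF region, probe 3: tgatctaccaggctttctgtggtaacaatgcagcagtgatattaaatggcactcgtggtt
The next 4 come from regions in which at least 2 probes were past 2-fold higher in KO cells in all 3 conditions, and each is the brightest of those probes. They lie at Morrbid (chr2:128142035-128142481, reverse strand), beside Fbxl5 (chr5:44173484-44176009, forward), beside Itm2b (chr14:73729977-73751877, reverse) and at Mirt1 (chr19:53517903-53540753, reverse).
Morrbid region: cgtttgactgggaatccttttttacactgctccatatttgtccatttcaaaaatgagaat
Fbxl5 region: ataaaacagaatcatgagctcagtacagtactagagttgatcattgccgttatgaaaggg
Itm2b region: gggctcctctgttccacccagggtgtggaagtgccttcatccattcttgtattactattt
Mirt1 region: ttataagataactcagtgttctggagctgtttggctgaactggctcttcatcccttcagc
Those with lower signals in KO cells in all 3 conditions are represented by the region at 2610035D17Rik (chr11:112905201-113062945, reverse) and by the single probe of chr19:29969050-29980675 (forward), which had the largest difference.
2610035D17Rik region: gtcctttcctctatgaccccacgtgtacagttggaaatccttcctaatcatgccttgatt
chr19 single-probe region: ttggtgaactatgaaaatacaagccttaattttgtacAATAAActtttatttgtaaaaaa
The last pair separates the cell types in every probe of its region, being brighter in neutrophils (chr8:26212577-26218527, reverse) or in macrophages (chr4:149445201-149445902, forward). The chr4 probe is the brightest of its region by mean signal and the one with the smallest difference (-3.41).
chr8 neutrophil region: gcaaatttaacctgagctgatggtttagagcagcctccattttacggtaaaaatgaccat
chr4 macrophage region: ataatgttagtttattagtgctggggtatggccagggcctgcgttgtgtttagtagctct
The chr19 probe had a G+C content of 21.7%, against a median of 45% over all lincRNA probes, and ends in a stretch around its hexamer. AATAAA was present on the printed strand of 634 lincRNA probes (3.92%) and of 4968 other probes (12.6%). Its reverse complement TTTATT was present in 3.03% and 4.03%.

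Signals are given as deposited, on a linear scale without scaling between arrays, and differences as log2 values after each array was scaled to its own 75th percentile over gene probes. That percentile was 489.8 and 409.5 in WT and KO macrophages, 432 and 338 with TNF, and 231 and 224 in the neutrophil arrays. The targeted gene was checked first. The Steap4 probe read 174.8 and 83.1 in WT and KO macrophages, 49.2 and 12.8 (not well above background) after TNF, and 48.8 and 36.0 for neutrophils, which was lower in the KO array of each pair. Whether this probe lies in the deleted part is not given, so it checks the labels only in part. With TNF the Steap4 probe was lower, by a log2 difference of -1.65 in WT macrophages and one bounded at -2.42 in KO macrophages. The mature neutrophil markers (10 genes, S100a8 and Ly6g among them) summed to 163 times the array's 75th percentile in WT and 439 in KO macrophages, 211 and 480 with TNF, and 2228 and 2747 in neutrophils. B cell markers summed to 7.12 and 20.4, 5.13 and 15.0, and 627 and 635, and mesothelial and fibroblast markers to 265 and 149, 251 and 121, and 1.08 and 1.40 in the same order. In whole-RNA samples a lower share of a cell type and less RNA per cell cannot be told apart.

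Fewer lincRNA probes than other gene probes were detected on every array. A probe was counted as detected where the scanner software marked its spot well above background. This held for 47.8% of the lincRNA probes in WT and 45.2% in KO macrophages, 43.8% and 40.01% with TNF, and 41.6% and 44.2% on the neutrophil arrays. The other probes gave 68.1%, 66.7%, 66.0%, 63.5%, 63.9% and 64.4% on the same arrays, and the negative control spots at most 1.62%. The difference had a mean of -21.64 percentage points (SD 1.26, n = 6 arrays) and was below 0 on 6 of 6 arrays. The exact two-sided sign-flip permutation test gave p = 0.03125, the smallest value 6 arrays allow.

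The size of that gap depended on how probes were pooled into names. Most other genes have 1 probe (22852 of their names), whereas most regions have 3 or more. Among names with a single probe on both sides, the gap had a mean of -10.17 points (SD 1.39, n = 6). With each name weighted equally it was -18.63 points. With only the brightest probe of each region or gene it turned around to +5.01 points (SD 1.08, n = 6, exact two-sided sign-flip permutation test p = 0.03125). This choice keeps, for each name with several probes, the one most likely to be detected. All 6 arrays read the same probes, so the test asks whether the sign holds over arrays and cannot decide between choices of probes. In WT macrophages 53.6% of single-probe regions were detected, against 63.0% of single-probe genes. For names with 4 to 10 probes, 47.4% of lincRNA probes and 77.7% of other probes were detected, and 89.1% and 94.1% of the names had at least 1 detected probe.

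**Figure D1:**
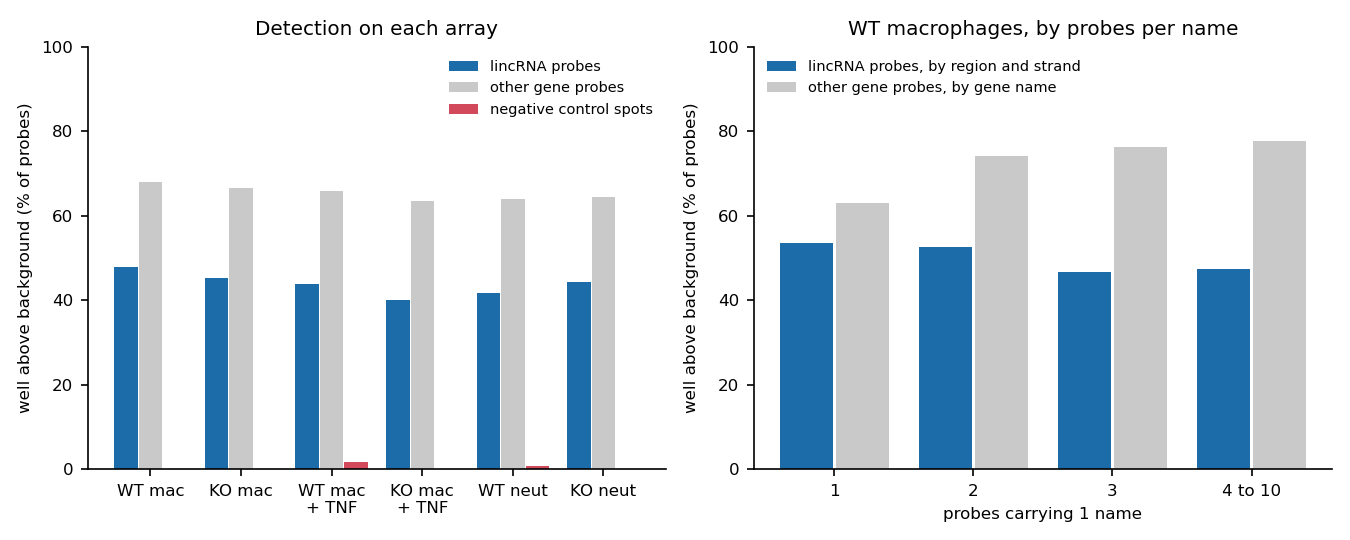
Left, percent of probes well above background on each of the 6 arrays for lincRNA probes (blue), other gene probes (grey) and negative control spots (red). Right, the same percent in WT macrophages for names with 1, 2, 3 or 4 to 10 probes: blue bars stay between 46.7% and 53.6%, whereas grey bars go from 63.0% to 77.7%.

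Across the 6 arrays, 6968 lincRNA probes (43.0%) were detected on none and 5270 (32.5%) on all, against 25.1% and 56.2% of the other probes. Detection on all 4 macrophage arrays and neither neutrophil array was found for 365 lincRNA probes (2.25%, against 3.17% of other probes). The reverse pattern, both neutrophil arrays and no macrophage array, held for 297 (1.83%, against 1.85%). Detected lincRNA probes were also dimmer. In WT macrophages their median signal was 52.6, against 419 for detected other probes, and the lowest signal marked well above background was 10.03. Detection went with base composition, from 27.6% of lincRNA probes with under 35% G+C to 71.2% of those with 55% or more in WT macrophages, and from 59.6% to 79.8% of other probes. It also went with region length. The share of regions with a detected brightest probe was 64.5% below 1 kb and 80.7% above 50 kb. These regions had a median of 3 and 4 probes, so length and number of probes were not separated. Neither link was tested as a cause of the gap between the probe classes.

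Probes of 1 region often disagreed. In WT macrophages 3475 of 4610 regions (75.4%) had at least 1 detected probe, yet among the 3385 regions with 3 or more probes, 607 (17.9%) had all of them detected, 661 (19.5%) none and 2117 (62.5%) some. Where probe pairs of 1 region and strand were detected on both arrays of a comparison, their log2 differences had a Pearson r between 0.24 (KO against WT neutrophils, n = 1631 pairs) and 0.53 (TNF in WT macrophages, n = 1755 pairs). Opposite strands of the same interval had an r between 0.01 and 0.11 (n = 600 to 675 regions). For WT neutrophils against WT macrophages the values were 0.48 (n = 1520) and 0.06 (n = 606). These are descriptions across regions, which share arrays and labelling and are not independent replicates. Among the 1067 intervals probed on both strands, 741 (69.4%) had at least 1 detected probe on each strand in WT macrophages, 274 on a single strand and 52 on neither. Whether the labelling kit kept the strand is not stated clearly in the labels.

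**Figure D2:**
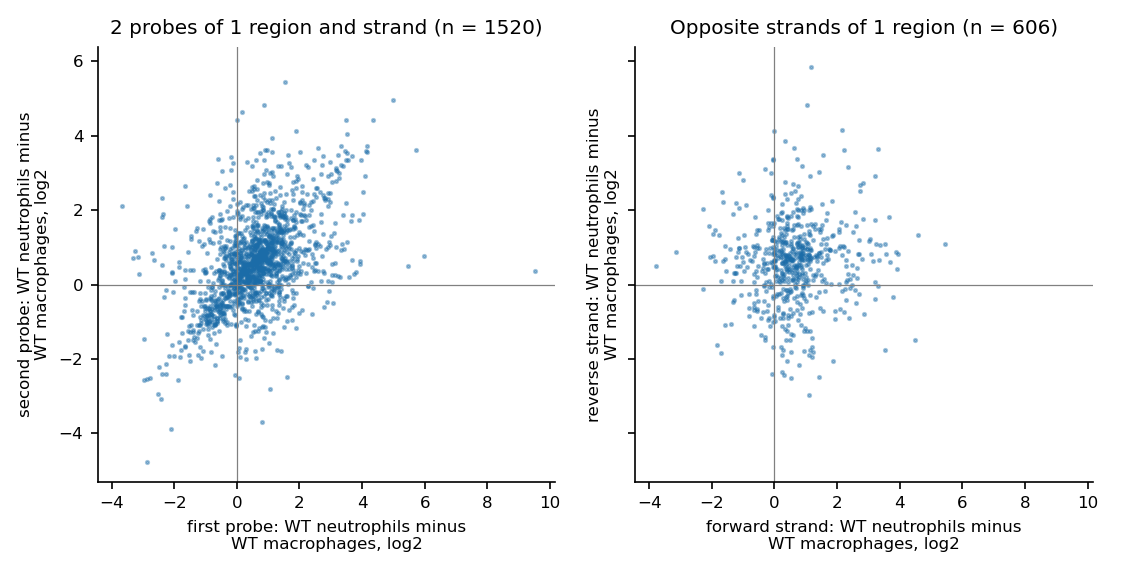
Log2 difference of WT neutrophils minus WT macrophages for the first and second probe of 1 region and strand (left, n = 1520 regions) and for the forward and reverse strand of 1 interval (right, n = 606 intervals), each point a region detected on both arrays. Points lie along the diagonal on the left (r = 0.48) and show no slope on the right (r = 0.06).

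With 1 array a group, no test between genotypes, treatments or cell types within a condition was possible. A probe was counted as higher or lower where it differed by at least 2-fold and its brighter spot was well above background. If the dimmer spot lacked that mark, the brighter signal was set against the higher of the dim probe's own signal and the array's floor, and the result is given as "at least". The floor is the lowest signal of a probe whose spots were all marked, between 9.99 and 11.8 on the 6 arrays. Probes above background on neither array were not compared. Regions in which several probes differed the same way are described before those that rest on 1 probe.

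LincRNA probes past 2-fold between KO and WT macrophages were mostly higher in KO cells. Without TNF, 8076 lincRNA probes could be compared, and 351 were higher (4.35%, beside 3.81% of all gene probes and 3.65% of the others) and 92 lower in KO cells (1.14%, beside 1.68% and 1.83%). Both directions together made 5.49% of them, beside 5.48% of all gene probes and 5.48% of the others, so their share was that of the array as a whole. The higher probes were 79.2% of the called lincRNA probes and 66.5% of the called other probes (68.2% and 57.9% after quantile normalization, 91.9% and 71.3% with normexp background correction). The median log2 difference of compared lincRNA probes was 0.08, and 0.05 for the others. Probes above background on neither array differed by a median of 0.34 in both classes, so dim spots stood higher on the scaled KO array.

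With TNF, 678 of 7426 lincRNA probes were higher in KO than in WT macrophages (9.13%, beside 6.69% of all gene probes and 6.01% of the others) and 136 were lower (1.83%, beside 2.71% and 2.96%). Together these were 11%, beside 9.41% and 8.97%. The higher share of the called probes was 83.3% for lincRNAs and 67.0% for the others. After quantile normalization it was 70.8% and 54.9%. Probes above background on neither array had a median difference of 0.61 in both classes. Of 624 lincRNA probes that were higher here and could also be compared between cell types, 458 (73.4%) were at least 2-fold brighter in WT neutrophils than in WT macrophages, 2 arrays that take no part in this comparison. They made up 22.6% of the 2029 neutrophil-high lincRNA probes among 7111 compared. Over all 7111 the neutrophil-high share was 28.5%. The other probes gave 72.4% of those higher in KO cells against 19.95% of all compared. Dim probes stood higher on the scaled WT neutrophil array too, by a median of 1.24 where above background on neither array. Of lincRNA probes detected on both arrays there, 39.8% of the dimmest 2891 and 17.5% of the brightest 395 were neutrophil-high. In KO macrophages with TNF, 9.20% of the dimmest 2891 and 0.27% of the brightest 375 were higher. The 73.4% and 28.5% were not matched on signal, so the part of dimness in the overlap was not tested. The neutrophil and B cell marker sums were also higher on both KO macrophage arrays (above). Both sums were higher on the WT neutrophil array than in WT macrophages too, the B cell sum at 627 against 7.12. The part of either marker list in these counts was not tested. Without the lincRNA probes that were at least 2-fold brighter in WT neutrophils than in untreated WT macrophages, the comparison with TNF held 220 higher and 113 lower probes of 5397 (6.17%, beside 5.86% of all 26787 gene probes left by the same rule). This count restates the overlap above, since the 458 higher probes were left out of the 678, and is not a separate result. The step was chosen after seeing the data. The comparison without TNF, leaving out those brighter in WT neutrophils than in TNF-treated WT macrophages, held 122 and 77 of 5764 (3.45%, beside 3.55% of 27400 gene probes).

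In neutrophils 398 of 7595 lincRNA probes were higher in KO cells (5.24%, beside 3.82% of all gene probes and 3.42% of the others) and 264 were lower (3.48%, beside 4.38% and 4.64%). Together these were 8.72%, beside 8.2% and 8.05%. The higher share of called probes was 60.1% for lincRNAs and 42.4% for the others. With normexp background correction it was 49.6% and 36.1%, so under that correction about as many called lincRNA probes were lower as higher. Of 526 called lincRNA probes with another compared probe in their region, 170 (32.3%, beside 34.1% for other genes) had one called the same way. For 25 another was called the opposite way. Marker sums differed between the neutrophil arrays too, from 438 in WT to 249 in KO for macrophage genes (6 of 10 at least 2-fold lower), 55.1 to 20.6 for eosinophil genes (4 of 5 compared), 190 to 99.5 for plasma cell genes (3 of 5) and 10.995 to 28.5 for erythroid genes (5 of 6 higher). Their part in these counts was not tested.

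**Figure D3:**
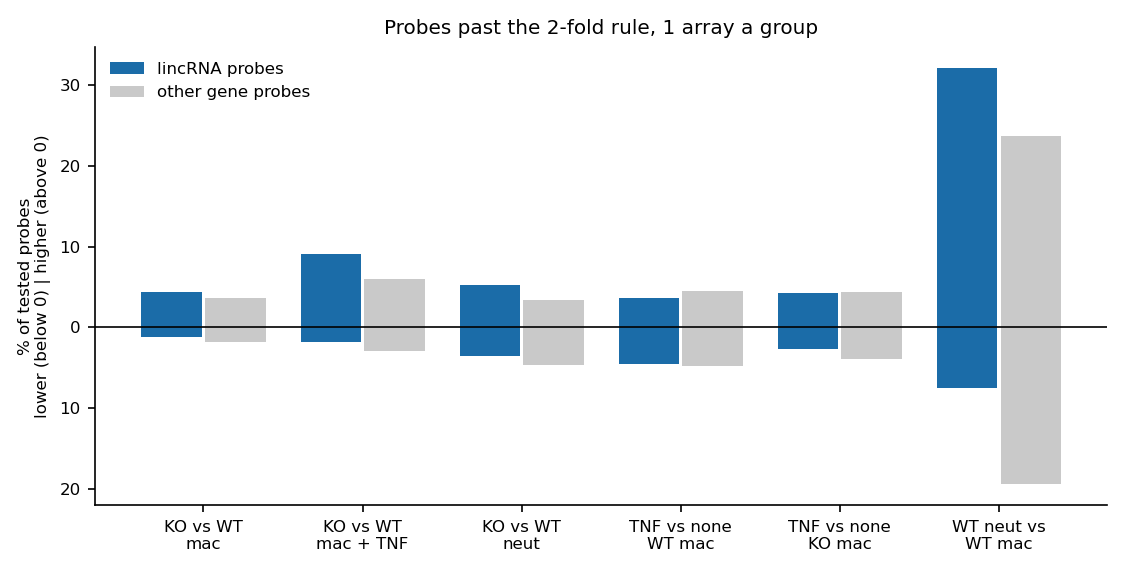
Percent of compared probes that were at least 2-fold higher (above 0) or lower (below 0) in each of 6 comparisons, for lincRNA probes (blue) and other gene probes (grey), with 1 array a group. The blue bars reach higher than the grey ones above 0 in the 3 KO comparisons and in neutrophils against macrophages (32.1% against 23.7%).

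At 38 lincRNA probes in 25 regions on 13 chromosomes the KO signal was at least 2-fold higher in all 3 conditions, and at 7 probes in 6 regions at least 2-fold lower. This was 0.604% and 0.111% of the 6289 lincRNA probes comparable in all 3, beside 0.429% and 0.205% of all gene probes and 0.383% and 0.229% of the others. With normexp background correction 3 and 2 probes did so. Of the 38 probes, 14 rest on a bound in at least 1 condition. In WT neutrophils against WT macrophages, 22 of the 38 were also at least 2-fold brighter and 3 dimmer. The shares of all compared lincRNA probes there were 32.1% and 7.48%, and those of all gene probes 25.6% and 16.7%. Both of these arrays also entered the KO comparisons that chose the 38, so this count is not separate from that choice. The 3 pairs of arrays are separate, but all 6 were on 1 slide and the spread between mice is unknown.

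At the Morrbid region on chr2, 3 of 3 probes were past 2-fold in all 3 conditions. Its brightest probe read 103 in WT and 229.9 in KO macrophages, 238 and 421 with TNF, and 24.5 and 97.3 in the neutrophil arrays. The KO array was the brighter of each pair, and the TNF arrays were the brightest overall. The log2 differences were 1.41, 1.18 and 2.03, and the other probes of the region, 114 and 243, 222 and 388, 28.0 and 81.6 for one and 70.7 and 155, 162 and 276, 21.5 and 62.4 for the other, differed by 1.35, 1.16 and 1.59 and by 1.39, 1.12 and 1.59. The gene's own Morrbid probe, which this region overlaps on the same strand, differed by 1.48, 1.20 and 2.31. The region's probe A_30_P01026716 shares a run of 25 bases with the Morrbid probe, so those are not independent. Bcl2l11, which encodes the pro-apoptotic protein BIM, lies 158 kb away, and its brightest probe differed by 0.08, -0.21 and 0.64, within 2-fold each time. Its other probe, A_52_P348214, read 56.8 in WT and 17.1 in KO macrophages, a difference of -1.48, and was within 2-fold with TNF (a bound of -0.12) and in neutrophils (-0.70).

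Neighbouring regions had other patterns. The region chr2:128211990-128215223 on the same strand, 69.9 kb away, was lower in KO macrophages at 3 of 3 probes. On its brightest probe the signal was 639 in WT and 186 in KO macrophages, 858 and 271 with TNF, and 100.8 and 89.6 in neutrophils, so the genotypes stood apart in macrophages and close together in neutrophils. The log2 differences were -1.52, -1.31 and -0.12. On the forward strand, 107.3 kb from Morrbid, the region chr2:128249388-128250301 was higher in KO neutrophils at 3 of 3 probes, by a median of at least 1.90 on the log2 scale. The brightest of its probes gave 80.0 in WT and 273 in KO neutrophils and 30.6 and 30.5 in macrophages.

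The region 23.9 kb from Fbxl5, which encodes an iron-sensing subunit of a ubiquitin ligase, was higher in KO cells at 3 of 3 probes in each condition. Its brightest probe read 82.5 in WT and 238 in KO macrophages, 178 and 338 with TNF, and 38.6 and 125 in neutrophils. KO exceeded WT in each pair by 1.79, 1.28 and 1.75 on the log2 scale, and the medians over its 3 probes were 1.32, 1.30 and 1.39. Fbxl5 itself, on the opposite strand, differed by 0.57, 0.65 and 0.93.

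Beside Itm2b, which encodes a membrane protein linked to familial dementias, a pair of overlapping reverse-strand regions on chr14 was higher in KO cells. The brightest probe of the shorter one read 156 in WT and 391 in KO macrophages, 31.2 and 82.9 with TNF, and 42.2 and 83.7 in neutrophils. It was thus brighter on each KO array and dimmer on both TNF arrays, with KO differences of 1.59, 1.77 and 1.03. It was the 1 probe of 3 in chr14:73746324-73749119 past 2-fold in all 3 conditions. In the longer region, chr14:73729977-73751877, 4 of 8 probes were, and the probe printed above read 136 and 425, 82.7 and 229, and 168 and 389, with KO differences of 1.90, 1.82 and 1.25. Itm2b, 13.7 kb from the shorter region on the same strand, differed by 0.22, 0.13 and -0.45.

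The Mirt1 region on chr19 was bright in neutrophils and higher in KO cells in part of its probes. On its brightest probe the signal was 85.7 in WT and 153 in KO macrophages, 68.1 and 110.8 with TNF, and 514.6 and 1410.5 in the neutrophil arrays. The differences were 1.10, 1.06 and 1.502, and 4 of its 10 probes were past 2-fold in all 3 conditions. Over the 10 probes WT neutrophils exceeded WT macrophages by 3.67 to 4.32. The gene's brightest Mirt1 probe differed by 1.03, 1.34 and 0.91 between genotypes and by 4.83 between cell types. The region at Mgam, which encodes the digestive enzyme maltase-glucoamylase, had the same order of cells. The brightest of its probes gave 10.7 (not well above background) in WT and 36.1 in KO macrophages, 14.0 and 32.0 with TNF, and 194 and 640.5 in neutrophils. KO was higher by at least 2.01 without TNF, by 1.55 with TNF and by 1.77 in neutrophils, and 2 of 5 probes passed in all 3.

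At chr6:129151512-129208737 on the reverse strand, where 2310001H17Rik lies, 2 of 10 probes passed in all 3 conditions. One read 121 in WT and 315.5 in KO macrophages, 74.0 and 153.7 with TNF, and 176 and 472 in neutrophils, which gave differences of 1.64, 1.41 and 1.47. The region's brightest probe, 1115 and 1442, 864 and 1084, and 3030.0 and 4222, differed by 0.63, 0.68 and 0.53. The probes of this region were therefore all brighter on the KO array in neutrophils where detected, but most stayed within 2-fold. A further probe, A_30_P01020557, read 16.0 and 19.03 in macrophages, 592 and 13.1 (not well above background) with TNF, and 29.9 and 69.6 in neutrophils, so 1 array stood far above the other 5. KO was lower there by at least 5.15 with TNF and higher by 1.27 in neutrophils. The probe of 2310001H17Rik itself differed by 2.03, 1.76 and 1.19.

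**Figure D4:**
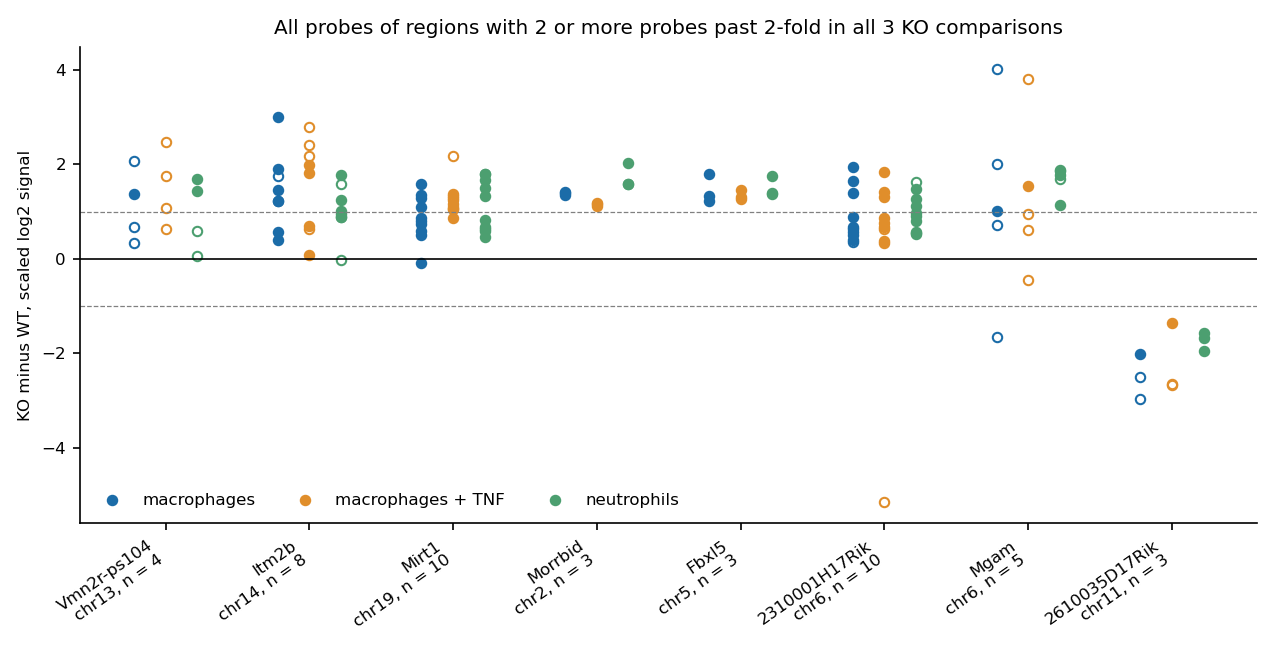
KO minus WT log2 difference of every probe in the 8 regions with at least 2 probes past 2-fold in all 3 conditions, named by the nearest gene, for macrophages (blue), macrophages with TNF (orange) and neutrophils (green). Filled points were above background on both arrays and open points were not and show the measured difference without the floor, and the dashed lines mark 2-fold. The 3 Morrbid and 3 Fbxl5 probes lie above the upper line in each condition, and the 3 probes of chr11:112905201-113062945 (2610035D17Rik) lie below the lower line, with 2 of them open in macrophages.

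The region at 2610035D17Rik, a non-coding RNA gene on chr11, was lower at 3 of 3 probes without TNF and in neutrophils. Its brightest probe read 149 in WT and 30.6 in KO macrophages, 61.9 and 18.8 with TNF, and 245 and 80.1 in the neutrophil arrays. The KO array was the dimmer of each pair, by -2.02, -1.36 and -1.56. The same direction was seen at the gene's probe A_52_P237652 (-1.54, -1.14 and -1.45), but not at its brighter probe, A_55_P2020054 (-0.20, 0.00 and -0.08). The member shares a run of 25 bases with a probe of that gene, so those are not independent. In the overlapping longer region chr11:112898724-113062945, 1 probe was lower by 1.81, at least 1.91 and 2.02 log2 units, whereas the region's brightest probe differed by 0.12, -0.15 and -0.64.

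Several of the largest KO differences rested on 1 probe. The single probe of chr19:29969050-29980675 read 479 in WT and 2.63 in KO macrophages, 484 and 2.97 with TNF, and 159.6 and 29.0 in neutrophils. Both KO macrophage arrays were at background, and KO was lower by at least 5.26 and 5.00 log2 units and, in neutrophils, by 2.41. Il33, an alarmin cytokine gene 54.4 kb away on the same strand, went the other way, with 0.92 and 1.16 in macrophages. At chr12:55844075-55898175, 1 of 5 probes read 2001 and 220 in macrophages, 2438 and 178 with TNF, and 866 and 55.7 in neutrophils (-2.93, -3.42 and -3.91). The brightest probe of that region, 18911 and 12398 in macrophages, differed by -0.35, -0.28 and -0.64. At chr17:87483814-87493039, 1 of 5 probes read 7.34 and 72.8, 11.6 and 115, and 10.4 and 102, higher in KO by at least 3.12, 3.67 and 3.25, while the region's brightest probe differed by -0.06, -0.17 and -0.02. At chr11:95627874-95640824, 1 of 9 probes was higher by at least 3.33, 2.56 and 2.27, and the brightest differed by -0.34, -0.33 and 0.17. At chr12, 1 further probe was past 2-fold with TNF and in neutrophils (-1.08 and -1.36), and at chr11, 1 further probe in macrophages (at least 2.24 and 1.49). The remaining probes of the 3 regions stayed within 2-fold.

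Further regions had all their probes past 2-fold in KO macrophages without TNF. At chr4:147105275-147171025, which overlaps the zinc finger gene Zfp984, 4 of 4 probes were lower in KO macrophages without TNF. The brightest read 82.9 in WT and 3.89 in KO macrophages, 46.8 and 9.96 with TNF, and 14.6 and 8.57 in neutrophils, so no KO array was well above background. KO was lower by at least 2.73 and, with TNF, 1.64. Another zinc finger gene 119 kb away, Zfp979, stood out in the opposite direction, with 89.4 in WT and 3276 in KO macrophages and a difference of 5.45. At chr2:45132558-45136718, 164 kb from Zeb2os, 3 of 3 probes were higher in KO macrophages. The brightest read 13.3 in WT and 56.1 in KO macrophages, 3.34 and 72.3 with TNF, and 2.68 and 6.45 in neutrophils, higher by 2.33 and by at least 3.21. At chr12:21381390-21381723, 3 of 3 probes were higher without TNF (brightest 41.7 and 119.8, 61.4 and 149, 149.97 and 211), by 1.25 to 2.18. One of them, A_30_P01020206, was past 2-fold in all 3 conditions (16.0 and 60.9, 21.9 and 36.4, and 16.8 and 44.1), by 2.18, 1.09 and 1.44. Adam17, which encodes the protease that releases TNF from cells, lies 52.0 kb away on the opposite strand and differed by 1.71, 1.504 and 2.36.

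The overlapping regions at Snhg18, a host gene of small nucleolar RNAs, were lower in KO macrophages. At chr15:32167516-32174427 the brightest probe read 784 and 369.7 in macrophages, 582 and 187 with TNF, and 106 and 45.9 in neutrophils, which gave -0.83, -1.28 and -1.16. With TNF, 5 of 5 probes passed 2-fold, and the Snhg18 probe differed by -1.01, -1.28 and -1.02. The region's probe A_30_P01018650 shares a run of 25 bases with the Snhg18 probe, so those are not independent. In neutrophils the region chr17:71183978-71185384, 8.24 kb from the transcription factor gene Tgif1, was lower in KO cells at 3 of 3 probes. It read 456 and 438 in macrophages and 486 and 366 with TNF but 53.2 and 15.4 in neutrophils, a difference of -1.74 there.

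Some probes that were very bright on the WT neutrophil array were dimmer on the KO one. At chr9:89167172-89168980, 1 of 3 probes read 620 and 549 in macrophages, 568 and 562 with TNF, and 22768 and 3334 in neutrophils, a KO difference of -2.73. At chr1:171402829-171403289, 1 probe read 953 and 166 in neutrophils and was not well above background in macrophages, a KO difference of -2.47. The other detected probe of the chr1 region went the opposite way, by 1.81.

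Probes were also ranked by size, with 1 brightest probe a region, detected on both arrays and above the median signal of such gene probes, and those ranked first lay on different chromosomes. In macrophages without TNF the probe of chrX:92139043-92140820 ranked first among the higher ones and read 160 in WT and 454 in KO cells, 198 and 436 with TNF, and 971 and 1154 in neutrophils. Its differences were 1.76, 1.495 and 0.30, so the genotypes were close in neutrophils. With TNF the probe of chr4:10407110-10724958 ranked first and read 57.7 and 152 without and 196 and 616 with TNF, differences of 1.66 and 2.01, and it was not well above background in neutrophils. In neutrophils the probe of chr1:183951156-183986156 ranked first and read 826 in WT and 4487 in KO cells, a difference of 2.49, and 6266 and 11841 in untreated macrophages, a difference of 1.18. The lower list with TNF was led by chr11:53592946-53637922, which overlaps the predicted gene Gm12216. It read 665 in WT and 123 in KO macrophages with TNF (-2.08) but 310 and 250.5 without (-0.05).

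A model over all 6 arrays, with genotype as the effect and the 3 conditions as blocks, called no lincRNA probe. By limma 0 of 9226 lincRNA probes and 0 of 29576 others had a Benjamini-Hochberg adjusted p under 0.05 over all probes (0% called), and the smallest adjusted p of a lincRNA probe was 0.274. At an unadjusted p under 0.05 there were 1328 lincRNA probes and 3652 others. With normexp background correction it called 1 lincRNA probe, lower in KO, and 10 higher and 5 lower others. The error of this model is how the genotype difference varies between conditions and not between mice.

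By the same ranking, the largest increase with TNF was at 1 region of chr17 in both genotypes. The 3 probes of chr17:84397891-84412748 read 17.2, 29.6 and 34.7 in WT macrophages and 8073, 2699 and 19696.5 with TNF. In KO macrophages they read 12.5, 13.0 and 33.1, and 5467, 1926 and 14299 with TNF. Neutrophils had 3.03 and 2.89 at the brightest probe, not well above background. The log2 differences with TNF were 9.05, 6.69 and 9.33 in WT cells, and at least 9.05, 7.49 and 9.03 in KO cells, and the brightest probe was 644-fold higher in WT and 523-fold higher in KO macrophages. Both genotypes thus showed it at all 3 probes, whose sequences are printed above. The 6 genes with a probe within 200 kb differed by -0.82 to 1.01. The nearest, 4933433H22Rik at 76.4 kb, differed by -0.73 in WT and 0.06 in KO cells, and 1810073O08Rik at 76.9 kb by 1.01 and 0.69.

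Over all lincRNA probes, 290 of 8095 were at least 2-fold higher with TNF in WT macrophages (3.58%, beside 4.31% of all gene probes and 4.52% of the others) and 365 lower (4.51%, beside 4.72% and 4.78%). Together these were 8.09%, beside 9.03% and 9.3%. In KO macrophages 320 of 7558 were higher (4.23%, beside 4.38% of all gene probes and 4.42% of the others) and 203 lower (2.69%, beside 3.61% and 3.87%), together 6.92%, beside 7.99% and 8.29%. These comparisons share arrays with the KO comparisons, so their values are given side by side only. The higher share of called lincRNA probes in WT cells was 44.3%, but 54.5% after quantile normalization and 68.7% with normexp background correction, so the prevailing direction turned with the processing. In KO cells it was 61.2%, and 77.7% with normexp. Probes above background on neither array had median differences of 0.18 and 0.45.

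Among the regions whose probes all passed, chr13:15947521-15999246 was higher with TNF in both genotypes. On its brightest probe the signal was 7.40 (not well above background) and 80.8 in WT macrophages without and with TNF, 15.2 and 152.9 in KO macrophages, and 19.9 and 46.5 in neutrophils. Of its 5 probes, the 4 that could be compared were higher, by at least 3.19 in WT and by 3.61 in KO cells at the brightest. Inhba, which encodes the activin A subunit and lies 119 kb away on the same strand, was higher by 3.52 and 4.29. Closer by, at 42.0 kb on the opposite strand, the non-coding gene B230303A05Rik was higher by 2.05 and 4.12. At chr8:129336539-129400338, 3 of 3 probes were higher. The brightest read 101.02 and 370.3 in WT and 147 and 527 in KO macrophages, a difference of 2.05 and 2.12.

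Regions lower with TNF included chr19:5834117-5835940, 6.62 kb from Neat1, the RNA that builds paraspeckles. The brightest of its probes gave 1116 and 264 in WT and 580.2 and 254 in KO macrophages, and 480.4 in WT and 1069.8 in KO neutrophils. The TNF arrays were the dimmest, and the KO arrays were dimmer than WT in untreated macrophages but brighter in neutrophils. TNF differences were -1.90 in WT and -0.91 in KO cells, and the KO difference in neutrophils was 1.20. Neat1 itself differed with TNF by -0.65 and -0.77. The chr14 region beside Itm2b was lower with TNF by -2.14 and -1.96, and Itm2b by -0.83 and -0.92. At chr2:36112819-36114110, 5.12 kb from the cyclooxygenase gene Ptgs1, the brightest probe read 154 and 63.4 in WT and 128 and 29.3 in KO macrophages, lower by 1.10 and 1.85 log2 units.

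Single bright probes also differed with TNF. At chr6:129151512-129208737 on the forward strand, 1 of 10 probes read 4905 and 34950 in WT and 5175 and 23590 in KO macrophages without and with TNF, higher by 3.01 and 2.47. At chr5:113594167-113645342, 1 of 8 probes read 2194 and 25794, and 2341 and 16811, higher by 3.74 and 3.12. At chr2:104702675-104736600, 1 of 2 probes read 1656 and 8327, and 1122 and 7369, higher by 2.51 and 2.99. The remaining probes of these regions were not compared or stayed within 2-fold in both genotypes.

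**Figure D5:**
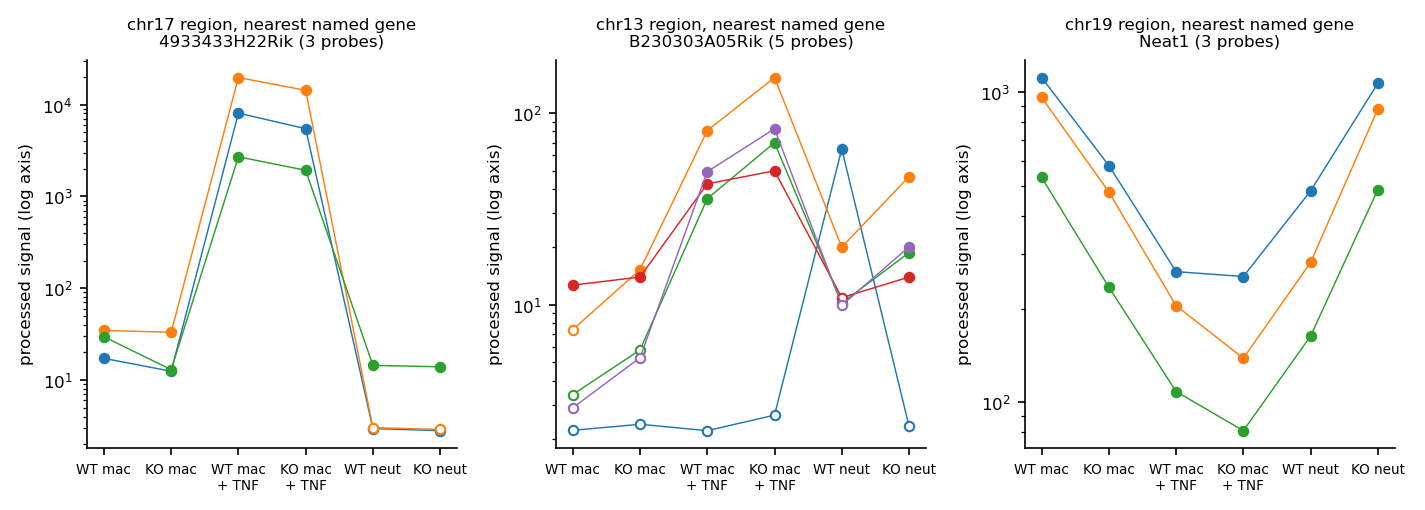
Processed signal (log axis, not scaled between arrays) of every probe of 3 regions on the 6 arrays, 1 line a probe, with open points where the spot was not well above background. Left, the chr17 region, with all 3 probes at 1926 or more on both TNF arrays. Middle, the chr13 region toward Inhba. Right, the region beside Neat1, lowest on the TNF arrays.

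Neutrophils and macrophages differed at far more lincRNA probes than genotypes or treatments did. Between WT neutrophils and WT macrophages, 2716 of 8464 lincRNA probes were higher in neutrophils (32.1%, beside 25.6% of all gene probes and 23.7% of the others) and 633 lower (7.48%, beside 16.7% and 19.4%). Together these were 39.6%, beside 42.2% and 43%. The higher share was 81.1% for lincRNAs and 54.98% for the others. After quantile normalization, which moved the median of all compared probes from 0.12 to -0.07, it was 64.8% and 46.9%. Probes above background on neither array had a median difference of 1.24 in both classes, and the 75th percentile used for scaling was lower by 1.08 on the log2 scale in WT neutrophils. Markers of other cells differed too. The B cell sum was 627 in WT neutrophils against 7.12 in WT macrophages (9 of 9 genes higher). The mesothelial and fibroblast sum was 1.08 against 265 (8 of 8 lower). Which cells on an array gave a region's signal was not tested.

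All 5 probes of chr8:26212577-26218527 were higher in neutrophils, by a median of at least 5.78. The brightest by mean read 35.9 in WT and 44.4 in KO macrophages, 41.4 and 38.5 with TNF, and 981 and 1563 in neutrophils, so both neutrophil arrays stood above all macrophage arrays. The closest gene, 5830408C22Rik at 1.39 kb on the opposite strand, differed by 1.73. At chr1:161992257-161992963 the 3 probes were higher by 4.35 to 4.57, and the brightest read 64.8 and 60.5, 40.8 and 49.2, and 625 and 935. At chr17:29378878-29379589 the difference of 9.51 ranked first, but it came from 1 of 3 probes. That probe read 103 and 181 in macrophages, 80.0 and 104 with TNF, and 35483 and 9203 in neutrophils, while another read 70.8 in WT macrophages and 43.4 in WT neutrophils. Pi16, which encodes a secreted peptidase inhibitor and lies 86.2 kb away on the same strand, was higher by 5.51.

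Toward macrophages, 3 of 3 probes of chr4:149445201-149445902 were brighter, by a median of at least 5.62 log2 units. The probe printed above read 726 and 451 in macrophages, 266 and 257 with TNF, and 32.4 and 32.0 in neutrophils. Another read 1799 and 1145, 596 and 589.8, and 3.64 and 2.89, the neutrophil values being at background. At chrX:18734106-18744367, 3 of 3 probes were lower in neutrophils with bounds on the log2 difference of -4.46 to -5.02. The brightest read 762 and 515, 714 and 387, and 10.9 and 19.04. At chr9:65368908-65377592 the brightest probe read 1132 and 1292 in macrophages, 2599 and 1577 with TNF, and 19.6 and 35.9 in neutrophils, a difference of -4.77.

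A region near the imprinted gene Igf2r and its antisense RNA Airn was brighter in macrophages. At chr17:12941161-12944859 on the same strand as Airn, 5 of 5 probes were lower in neutrophils, the brightest by at least 4.49. It read 526 and 356 in macrophages, 246 and 186 with TNF, and 9.68 and 14.9 in neutrophils. Airn differed by -1.20 at its brightest probe, A_55_P2055199, which lies 63.2 kb from the region, and by -4.69 at A_55_P2122633, which lies within it, and Igf2r, 65.9 kb away, by -3.29. At chr2:119697845-119719245, 54.0 kb from the receptor kinase gene Tyro3, 3 of 4 probes were comparable, and all 3 were lower in neutrophils. The brightest read 2251 and 2115, 1279 and 1192, and 72.6 and 51.0 (-3.87), beside -3.57 for Tyro3.

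Some brightest probes were detected on the arrays of 1 cell type only. Among those detected on the 4 macrophage arrays and neither neutrophil array, the probe of chr16:29907604-29946602 read 329 and 333 in macrophages, 88.6 and 116 with TNF, and 8.77 and 7.29 in the neutrophil arrays. The probe of chr4:114631940-114632618, 1.605 kb from the nucleotide kinase gene Cmpk1, read 198 and 184, 154 and 137, and 4.48 and 7.45. In the opposite pattern, the probe of chr15:60732209-60732822 read 82.9 and 57.9 in neutrophils and at most 10.3 on the macrophage arrays.

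LincRNA regions that overlap a gene probe on the same strand tended to differ as that gene did. Over 272 such regions detected with their neighbour on both arrays, the log2 differences of WT neutrophils against WT macrophages had an r of 0.47, and with TNF in WT macrophages r was 0.55 (n = 305). For overlap on the opposite strand r was 0.10 (n = 159) and 0.17 (n = 180). These are descriptions across regions, with no test.

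Of 44 long non-coding RNAs known by gene name (a list that holds no coordinate-named probe), 32 were on the array. In macrophages 0 were higher and 2 lower in KO cells, of 26 compared without and 25 with TNF (shares of all gene probes above). They were Meg3 (-1.79 and -1.48) and Mirg (-1.26 and -1.09), neighbours in an imprinted cluster on chr12. The mesothelial and fibroblast marker sum was also lower in KO macrophages (265 to 149, and 251 to 121 with TNF). Its part in these differences was not tested. Of 26 in neutrophils 0 were higher and 2 lower, Gas5 (-1.22) and Xist (at least 1.91 lower), the RNA that silences 1 X chromosome in females. The Xist probe used, 1 of 7, read 40.9 in WT and 9.47 in KO neutrophils. It was well above background on the WT neutrophil array only. With TNF 1 was higher and 4 lower of 26 in WT cells, and 0 and 3 of 25 in KO cells. Malat1 was lower in both, by 1.39 and 1.54 log2 units. Between cell types 11 of 27 were higher in WT neutrophils, Snhg12 by 2.76 and Zfas1 by 2.35, and 5 lower, among them Neat1 (-3.11).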

How the data were processed

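Total RNA from peritoneal macrophages and neutrophils was hybridised, per the labels, to 6 single-colour Agilent arrays, 1 a group, and each array's intensity values were extracted by the authors with Agilent Feature Extraction 10.7.3.1 (per the file headers, coordinates on mm9). The deposited processed intensity is background-corrected and not scaled between arrays. From it, log2 values of the deposited intensity minus each array's 75th percentile over gene probes were computed, after control and outlier spots were left out and spots of a probe averaged. No depth exists for arrays, and 1 array a group limits the precision.

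Detection used the software's well-above-background mark. Where a probe has several spots, the mark had to be on no fewer spots than lacked it, and the floor of an array came from probes with all spots marked. The class difference in detection was tested with an exact sign-flip permutation over 6 arrays. The genotype effect over 3 conditions was fitted with limma 3.58.1 (R 4.3.3, condition as a block, Benjamini-Hochberg over all probes), and the fit was tested on simulated data. Other steps used Python 3.11.15, numpy 2.4.6, pandas 2.3.3 and matplotlib 3.10.9.

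Other gene probes were named through RefSeq tables of GRCm38.p6, for names only, by accession (27235), symbol (3581) or synonym (565), and 8106 stayed unnamed. Distances to genes are between probes on the array and not to annotated gene ends.

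Named regions were the 5 largest increases and decreases of each comparison, the 3 largest bounds, the 8 past 2-fold in all 3 conditions and the 4 of each detection pattern. Regions named because several of their probes passed 2-fold, or because 1 probe disagreed with its region, and the genes set beside them, were chosen after their values were seen. The members and lists were chosen with earlier results of these data known. Alternatives were quantile normalization, normexp background correction, another scaling, other filters on dim probes, another floor and 1 probe a region.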

Additional observations from a re-analysis of the deposited data

Results flagged for a closer look

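Among the probes named by the ranking rules above, the difference ran in opposite directions in a pair of comparisons at 4 regions. Other probes were not searched, and the chr6 probe A_30_P01020557 described above also went in opposite directions. With 1 array a group, none of these differences between comparisons was tested.

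At chr12:20996314-21091646 KO minus WT was bounded at -6.01 in macrophages with TNF and at 1.22 in neutrophils, since the dimmer array of each pair was not well above background. Its probe read 4.75 in WT and 4.82 in KO macrophages, 971 and 8.07 with TNF, and 13.6 and 30.8 in neutrophils, so 1 array stood far above the other 5. At chr13:19611679-19620954 KO minus WT was 1.48 in untreated macrophages and bounded at -4.35 with TNF, and the TNF difference was 4.64 in WT cells and bounded at -1.20 in KO cells. The probe, 1 of 10 in its region, read 14.4 and 33.6, 316 and 12.1, and 14.4 and 14.0, again with 1 high array.

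At chr11:117792051-117811334 KO minus WT was 1.03 in macrophages with TNF and -1.11 in neutrophils (signals of 1868 and 2977, and 522.8 and 234.4). At chr17:29378878-29379589 KO minus WT was 1.07 in untreated macrophages (103 and 181) and -1.90 in neutrophils (35480 and 9203).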

How the results depend on the processing

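No paired analysis was possible because each group has 1 array and no replicate number to pair; the fit over 3 conditions had the condition as a block. Of 728 values of 129 named results under 6 alternatives, 699 kept direction and side of the 2-fold threshold, 29 fell under it, all with normexp background correction, and 0 reversed. With no filter on dim probes, detection on both arrays or the other floor, a called result could not fall by construction. Their 129, 83 and 129 unchanged values are therefore no check of these calls. With normexp 100 of 129 were unchanged, and with quantile normalization and the other scaling 129 each. Requiring detection on both arrays left 83 of the 129 to compare, and the named results it left out are not among the 728. Of 72 alternative values, 40 stayed within 1.5 times or kept their call and 32 did not; where no construction is named, the cause was not tested. In the order KO against WT in macrophages, with TNF and in neutrophils, TNF in WT and in KO macrophages, and neutrophils against macrophages, counts past 2-fold were 443, 814, 662, 655, 523 and 3349. With normexp they were 86, 212, 141, 147, 103 and 2325. With the floor behind a bound taken from probes on which marked spots were no fewer than unmarked ones, an alternative chosen after seeing the data, they were 443, 874, 908, 969, 524 and 3527, since that floor is 5.45 on the WT array with TNF and 6.07 on the WT neutrophil array, below every single marked spot; the higher share then became 70.9% for KO neutrophils and 29.9% for TNF in WT cells. Without a filter on dim probes, which admits more probes, they were 1847, 2334, 2344, 2316, 1945 and 9537. With 1 probe a region, which leaves fewer, they were 182, 363, 258, 225, 202 and 1450. Detection on both arrays gave 531 for KO with TNF, 405 for KO neutrophils and 435 for TNF in WT cells. Leaving out neutrophil-high probes, an alternative chosen after seeing the data, gave 199 and 333 for the macrophage KO comparisons. The probes left out hold most of the higher ones, so a smaller count followed by construction. Probes higher in KO in all 3 conditions numbered 38, and 3 with normexp, 99 without a filter, 24 detected on both arrays, 14 with 1 probe a region and 45 with the lower floor. Those lower numbered 7, and 2, 18, 3 and 2 in the same order. By limma 0 lincRNA probes passed, 1 with normexp, and 0 without each condition in turn. The detection gap turned to 5.01 points with 1 probe a region. Signals near background limit most of these counts.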
